A study of Mus musculus with 4 samples.

Results

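The genes described here are 10 cytosolic heat shock genes of the mouse, taken by name from 18872 gene identifiers in the deposited tables: Hspa1a, Hspa1b, Hsp90aa1, Hspb1, Hsph1, Dnajb1, Hspa8, Hsp90ab1, Hspa4 and Hsf1. All 10 were listed in every library and all 10 passed the filter on low counts. The cells were primary epithelial cells of the colon, taken after 3 days in which the mice received 2% dextran sulfate sodium (DSS), a chemical that damages the colonic mucosa and causes colitis. Wild-type mice gave 2 libraries, and mice that lack Ezh2 in intestinal epithelial cells (genotype EZH2-IEC-/-, here the knockout) gave 2. Ezh2 encodes the histone methyltransferase of Polycomb repressive complex 2. Both groups had received DSS, so the comparison is one of genotypes and does not show what DSS did. The strain, age, sex and Cre driver are not given in the sources used here. Nor is it stated that the 2 libraries of a group are from different animals. The spread behind each p-value is that between these libraries and may be technical.

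Cytosolic chaperones keep proteins folded. HSP70 proteins bind exposed hydrophobic stretches of a client under the control of ATP, J-domain proteins bring the client, HSP110 proteins exchange the nucleotide, HSP90 proteins complete the folding of kinases and receptors, and small heat shock proteins hold unfolding proteins without ATP. Heat, oxidants and other stress release the transcription factor HSF1, which forms trimers and binds heat shock elements, inverted repeats of GAA units, at the promoters of inducible members. In the colon epithelium, HSP70 and the small heat shock protein encoded by Hspb1 are known as protective proteins that microbial products and injury can induce. Hspa1a, Hspa1b, Hsp90aa1, Hspb1, Hsph1 and Dnajb1 are treated here as inducible, Hspa8, Hsp90ab1 and Hspa4 as constitutive, and Hsf1 as the regulator.

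The promoters of 6 of the 10 genes were matched in the RefSeq promoter table (build GRCm38.p6), whose windows run from 250 bases before to 50 after a transcript start. The bases before the start are shown for the Hspa1a and Hspa1b pair, and for Hspb1, the inducible member whose level went the other way. What bears on how reads of the pair were counted is the likeness of their transcripts, given below, and not these upstream bases. Capitals mark GAANNTTC, the core of a heat shock element, which reads the same on both strands. The regions are chr17:34972157-34972406 (minus strand) for Hspa1a, chr17:34959239-34959488 (minus strand) for Hspa1b and chr5:135887669-135887918 (plus strand) for Hspb1, each written 5′ to 3′ along the gene.
Hspa1a: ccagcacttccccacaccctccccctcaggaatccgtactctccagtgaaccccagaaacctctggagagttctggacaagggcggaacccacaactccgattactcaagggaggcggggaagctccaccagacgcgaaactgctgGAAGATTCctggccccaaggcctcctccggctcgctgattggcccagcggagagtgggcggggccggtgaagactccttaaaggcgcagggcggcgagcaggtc
Hspa1b: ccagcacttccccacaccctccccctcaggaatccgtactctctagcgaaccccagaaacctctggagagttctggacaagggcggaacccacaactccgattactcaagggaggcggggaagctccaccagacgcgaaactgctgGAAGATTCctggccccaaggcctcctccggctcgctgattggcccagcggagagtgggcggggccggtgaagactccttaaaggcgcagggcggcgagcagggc
Hspb1: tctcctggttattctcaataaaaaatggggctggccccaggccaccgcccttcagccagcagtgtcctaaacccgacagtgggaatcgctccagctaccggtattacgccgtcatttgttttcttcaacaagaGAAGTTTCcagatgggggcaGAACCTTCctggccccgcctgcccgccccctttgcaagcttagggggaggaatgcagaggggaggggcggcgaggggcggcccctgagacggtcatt

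Hspa1a and Hspa1b, neighbours on chromosome 17, were identical at 247 of these 250 upstream bases. From Hspa1a to Hspa1b the differences were C44T, T47C and T249G, counted from 1 at the 5′ end of the printed sequence. Both carried 1 core match, starting 104 bases before the transcript start. Hspb1 carried 2, starting 117 and 97 bases before it. Hsph1 carried 1, after the start, within a match of the 3-unit element (the core, then any 2 bases, then a further GAA, searched on both strands), TTCTGGAAAGTTC at chr5:149636288-149636300 on the minus strand. The windows of Dnajb1 and Hspa4 held neither set of letters. Of 32851 promoter windows of 300 bases, 7.86% held the core, 0.34% held at least 2 cores and 0.6% held the 3-unit element on either strand. A match is a string of letters and not a measured binding site.

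In the library totals, estimated counts summed to 5037367 and 5236519 in wild type and to 5399949 and 5446998 in the knockout. Ezh2 itself had 105 and 102 counts in the wild-type libraries against 86 and 83 in the knockout libraries. Its log2 fold change of -0.27 ± 0.17 missed the threshold (edgeR, adjusted p = 0.217). The sources used here do not say which part of Ezh2 was removed, so this count does not check the labels. Defining markers of colon epithelium were abundant in both groups, with Krt8 at 3274 and 3758 FPKM and Krt19 at 2826 and 3218 FPKM in wild type and knockout. They did not move as one: 8 of the 13 epithelial genes were called higher, and the 4 called lower were Epcam (-0.27), Cdh1 (-0.60), Car1 (-1.37) and Slc26a3 (-1.49), on the log2 scale. Among all genes tested, 23.0% were called higher and 20.8% lower. FPKM, a count scaled by transcript length and library total, is used below to compare levels between genes. Fold changes are knockout over wild type on the log2 scale with their standard error, from edgeR's quasi-likelihood test on counts scaled with TMM factors. A gene was called where p, adjusted over all 13608 genes tested (Benjamini-Hochberg), was under 0.05.

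Of the 10 heat shock genes, 7 were called higher in the knockout and 1 lower, and 2 did not pass. Over all genes tested 43.7% were called, 23.0% higher and 20.8% lower, or 31.8% and 24.4% of the 6981 genes at least as well counted as the least counted member (a mean of 24.5 TMM-scaled CPM, the count scaled by library total). The median log2 fold change of the 10 genes was 0.46, against -0.002 over all genes. The inducible genes held the larger differences, with 5 of 6 higher by 0.65 to 1.13 on the log2 scale and Hspb1 lower. The constitutive genes lay between 0.21 and 0.27, and Hsf1 near 0. The knockout libraries were both above both wild-type libraries in TMM-scaled counts for 8 of the 10 genes, against 36.8% of all genes, and both below for Hspb1, against 36.4%. Library totals alone, in place of TMM factors, moved the median of all genes to -0.103. Under that scaling Hspa8 and Hsp90ab1 lost their calls, and 5 members were called higher and 1 lower.

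**Figure D1:**
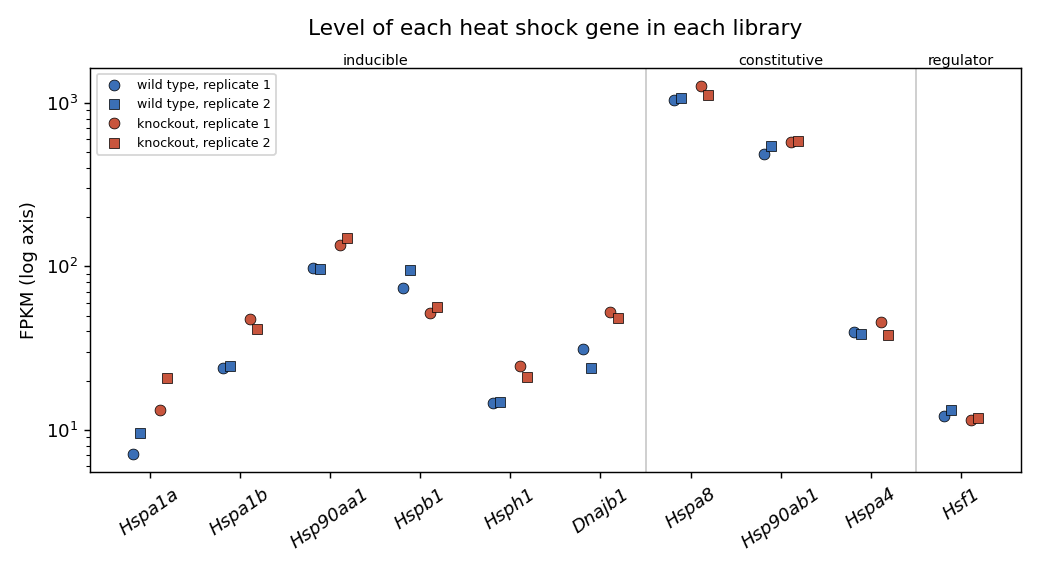
FPKM of each heat shock gene (log axis) in each of the 4 libraries: blue, wild type; red, knockout; circles, replicate 1; squares, replicate 2. Hspa8 is the highest gene in every library, from 1047 FPKM, and among the inducible genes only Hspb1 has its knockout libraries below the wild-type ones.

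**Figure D2:**
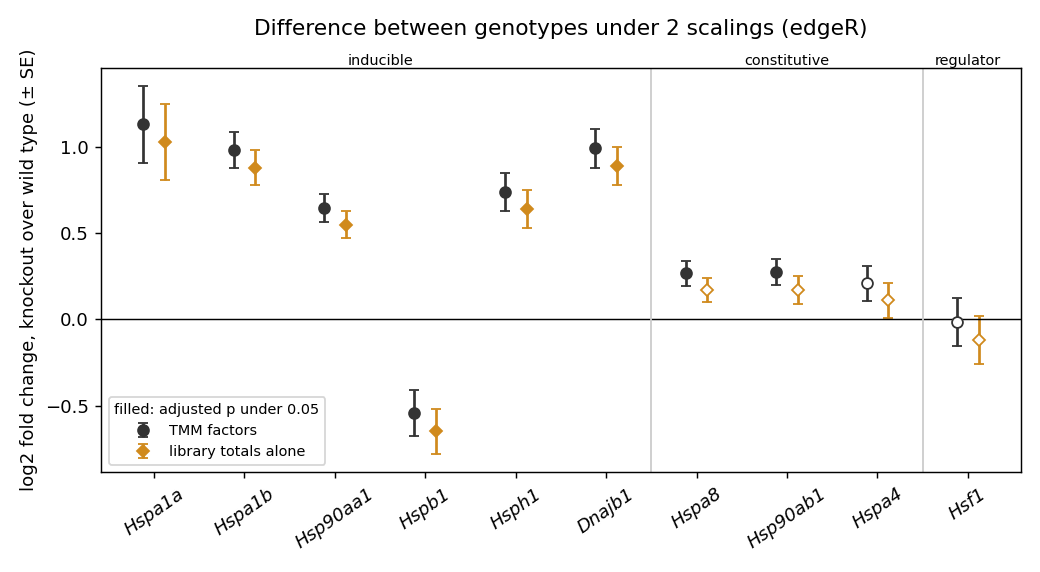
Log2 fold change of each gene, knockout over wild type, with bars of 1 standard error, from edgeR with TMM factors (circles) and with library totals alone (diamonds), filled where adjusted p is under 0.05. The 6 inducible genes keep their calls under both scalings, while Hspa8 and Hsp90ab1 are filled only with TMM factors.

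Levels spanned 128-fold between members in wild type. By mean FPKM over the wild-type libraries the order was Hspa8 (1061 ± 19.3, SD, n = 2), Hsp90ab1 (516 ± 41.3), Hsp90aa1 (97.3 ± 0.42), Hspb1 (84.7 ± 15.1), Hspa4 (38.8 ± 0.75) and Dnajb1 (27.5 ± 5.18). Hspb1 and Hsp90aa1 did not differ beyond the spread of Hspb1. Below them came Hspa1b (24.2 ± 0.45), Hsph1 (14.7 ± 0.15), Hsf1 (12.6 ± 0.74) and Hspa1a (8.31 ± 1.68). The SD of Dnajb1 holds a difference in its deposited transcript lengths, given with its counts below, so its place beside Hspa1b is not settled. By mean FPKM, Hspa8 was number 58 of all genes in wild type and number 43 in the knockout.

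The stress-inducible HSP70 pair was higher in the knockout. Hspa1b stood at 23.9 and 24.5 FPKM in wild type and at 47.6 and 41.55 in the knockout. Hspa1a stood at 7.12 and 9.5 FPKM in wild type and at 13.3 and 20.8 in the knockout. For both genes each knockout library was above each wild-type library, and Hspa1a varied more within a group. The log2 fold change was 0.98 ± 0.10 for Hspa1b (edgeR, adjusted p = 9.69e-05) and 1.13 ± 0.22 for Hspa1a (edgeR, adjusted p = 0.00324). Their GENCODE transcripts (release M21) shared 1716 stretches of 50 bases, 58.8% of those of Hspa1a and 62.3% of those of Hspa1b, and no other pair of the 45 among these genes shared any. Their deposited counts were fractional, so each gene's own value is uncertain. The sum of both does not depend on how reads were divided between them. Summed counts were 440.36 and 502.21 in the wild-type libraries against 928.31 and 958.24 in the knockout libraries, or 31.0 and 34.0 against 60.9 and 62.3 FPKM. These sums are not whole, so some reads may also be divided with genes outside the pair. Hspa1l, an HSP70 relative not among the 45 pairs, had fractional counts too, 15.63 and 21.8 in wild type and 14.69 and 9.77 in the knockout. The sum of Hspa1a and Hspa1b gave a log2 fold change of 1.02 ± 0.09, 2.04 times the wild-type level (edgeR, adjusted p = 4.78e-05). Hspa1a made up 23.0% and 27.9% of the summed FPKM in wild type and 21.8% and 33.3% in the knockout, so its share overlapped between groups and differed by less than its spread (exact permutation test, two-sided, p = 1).

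The partners of HSP70 that are known to be induced with it were higher as well. Dnajb1 encodes HSP40, the J-domain protein that delivers clients to HSP70 and whose binding to HSF1 complexes is part of the shut-off of the response. Wild-type libraries held 359 and 378 counts of it, and knockout libraries held 650.3 and 794. Both knockout libraries were well above both wild-type libraries, with a log2 fold change of 0.99 ± 0.11 (edgeR, adjusted p = 0.000158). Its FPKM, 31.1 and 23.8 against 52.6 and 48.1, is set by transcript lengths that differ between the replicate 1 tables (2284 bases) and the replicate 2 tables (3013 and 3009 bases), so its counts are given first. These counts are fractional too, so part of them was estimated. Hsph1, the inducible HSP110 exchange factor, stood at 14.6 and 14.8 FPKM in wild type and at 24.7 and 20.9 in the knockout. The groups were apart, with a log2 fold change of 0.74 ± 0.11 (edgeR, adjusted p = 0.000725). Hspa4, a constitutive HSP110 relative, stood at 39.4 and 38.3 FPKM in wild type and at 45.4 and 38.2 in the knockout. Knockout replicate 1 was the high library and the other 3 were close together in FPKM. In TMM-scaled CPM, 179 and 175 against 222 and 187, both knockout libraries were above, and the difference of 0.21 ± 0.10 did not pass (edgeR, adjusted p = 0.133). Without knockout replicate 2 it was 0.34 (adjusted p = 0.0109), and without knockout replicate 1 it was 0.07 (adjusted p = 0.647).

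Hspa8 encodes HSC70, the constitutive HSP70 that also uncoats clathrin vesicles. It stood at 1047 and 1075 FPKM in wild type and at 1268 and 1110.1 in the knockout. Both knockout libraries were above both wild-type libraries, knockout replicate 2 by little, and the log2 fold change was 0.27 ± 0.07 (edgeR, adjusted p = 0.0179). The call was lost under 8 of 15 alternatives, among them leaving out wild-type replicate 1 (0.24, adjusted p = 0.101), wild-type replicate 2 (0.29, adjusted p = 0.0854) or knockout replicate 1 (0.16, adjusted p = 0.0823), and library totals alone (0.17, adjusted p = 0.101).

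The HSP90 genes are a pair of 1 inducible and 1 constitutive isoform. Hsp90aa1, the inducible isoform, stood at 97.6 and 97.0 FPKM in wild type and at 135 and 149 in the knockout. The wild-type libraries were close together and both knockout libraries well above them, with a log2 fold change of 0.65 ± 0.08 (edgeR, adjusted p = 0.000278). Hsp90ab1, the constitutive isoform, stood at 487 and 545 FPKM in wild type and at 576 and 587 in the knockout. The groups did not overlap but wild-type replicate 2 was near the knockout, and the log2 fold change was 0.27 ± 0.08 (edgeR, adjusted p = 0.0175). That call was lost under 6 of 15 alternatives, among them leaving out wild-type replicate 1 (0.19, adjusted p = 0.2) and library totals alone (0.17, adjusted p = 0.0949). Within a library, which needs no scaling between libraries, Hsp90aa1 made up 16.7% and 15.1% of the FPKM of the pair in wild type and 19.0% and 20.2% in the knockout. The share was thus 3.72 percentage points higher in the knockout without overlap, and an exact permutation test of 2 libraries against 2 gave p = 0.33, the smallest it allows.

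**Figure D3:**
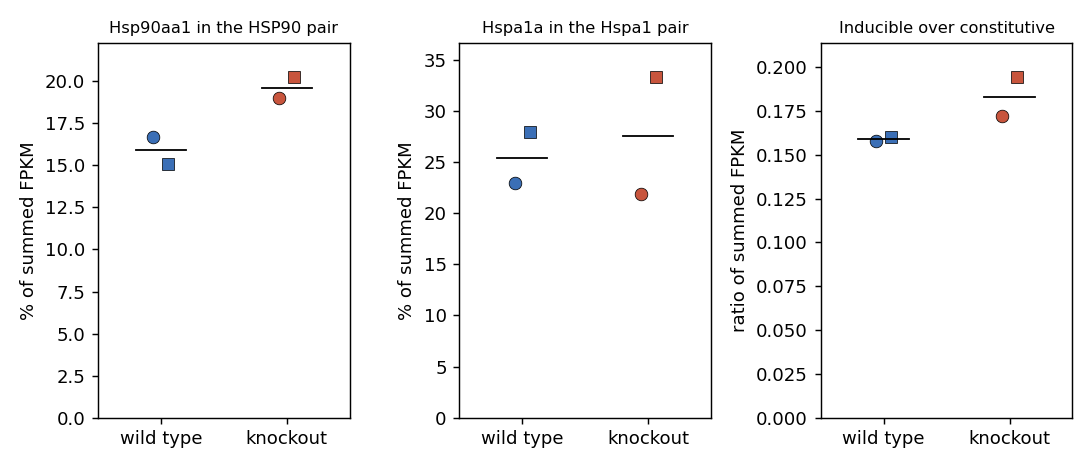
Within-library values by genotype (circles, replicate 1; squares, replicate 2; lines, means of 2 libraries): the share of Hsp90aa1 in the HSP90 pair, the share of Hspa1a in the Hspa1 pair, both in % of summed FPKM, and the summed FPKM of the 6 inducible over the 3 constitutive genes. The Hsp90aa1 share and the ratio are higher in both knockout libraries, and the Hspa1a share overlaps between genotypes.

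Summed over the 6 inducible and the 3 constitutive genes, the ratio of FPKM was 0.158 and 0.160 in wild type and 0.172 and 0.194 in the knockout. Hsp90aa1 and Hspb1, the most abundant inducible genes, moved in opposite directions within this sum. The difference of 0.024 had an exact permutation p = 0.33, the smallest possible, and it was 0.013 without knockout replicate 2 and 0.050 on counts in place of FPKM.

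Hspb1, which encodes the small heat shock protein HSP25 (HSP27 in humans) that binds unfolding proteins and actin filaments, was the member that fell. It stood at 74.0 and 95.4 FPKM in wild type and at 51.6 and 56.7 in the knockout. Both knockout libraries were below both wild-type libraries, and the wild-type libraries lay further apart than the knockout libraries. The log2 fold change was -0.54 ± 0.13 (edgeR, adjusted p = 0.00992). Without wild-type replicate 2, its highest library, it was -0.35 and did not pass (adjusted p = 0.1). Of 9 other small heat shock protein genes, 6 passed the filter on low counts, of which 4 fell and the other 2 did not pass, with a median log2 fold change of -0.59. Over all genes tested 20.8% were called lower and 23.0% higher, and the counts in this paragraph are to be read against these shares. Hspb6 fell from 18.04 to 6.72 FPKM (-1.32), Cryab, αB-crystallin, from 20.15 to 11.0 (-0.79) and Hspb8 from 15.6 to 9.89 (-0.55). DESeq2 called 1 of these genes lower. Hspb6 and Cryab are known to be abundant in muscle. Markers of fibroblasts and smooth muscle were lower too: 12 of 14 fell and 1 rose, with Tagln at 1028 and 473 FPKM and Actg2 at 684 and 317 FPKM, and their summed level was 3386 and 3649.8 FPKM in the wild-type libraries and 1558 and 2016 in the knockout. None of that list was at 0, and the part of these cells in the values of Hspb1 and its relatives was not tested. In such bulk samples fewer cells of a type and less RNA per cell cannot be told apart.

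Hsf1, which encodes the heat shock transcription factor itself, stood at 12.1 and 13.15 FPKM in wild type and at 11.5 and 11.8 in the knockout. In TMM-scaled CPM the groups overlapped, at 23.6 and 25.7 against 24.0 and 24.8. The log2 fold change was -0.02 ± 0.14 (edgeR, adjusted p = 0.939), and without wild-type replicate 2 it was 0.05. HSF1 is controlled mainly through its protein, by trimer formation and phosphorylation, which RNA counts do not measure. Of 4 other measured heat shock factor genes and partners edgeR called none, with none at an unadjusted p under 0.05 and none called by DESeq2. Hsbp1, a binding partner of HSF1, had 75.8 and 82.9 FPKM in wild type and knockout, Hsf2 2.48 and 1.57, and Hsf4 0.55 and 1.36.

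Other genes of the cytosolic chaperone network were read from the same fit. Over 6 lists with 72 measured genes, 26 were called higher (36.1%) and 9 lower (12.5%), with a median log2 fold change of 0.25. Over all genes tested the shares were 23.0% and 20.8%, and over the genes at least as well counted as the least counted heat shock gene 31.8% and 24.4%, so the share called higher was near that background. The counts by family, and those of the other lists, in this and the following paragraphs are to be read against the same shares. Among HSP70 relatives and exchange factors, 6 of 13 rose and 1 fell. Hspa4l, an HSP110 relative, rose by 0.99 ± 0.10 on the log2 scale (10.2 to 18.9 FPKM), Hspbp1, an exchange factor of HSP70, by 0.88 ± 0.12 and Hspa12a by 0.64 ± 0.13. Bag1, the most abundant of the list, rose from 158 to 181 FPKM (0.30 ± 0.08). Of 14 J-domain genes 2 rose and 2 fell. Dnaja1, the main farnesylated partner of HSP70, rose by 0.92 ± 0.10, and Dnajc2, which acts at the ribosome, by 0.68 ± 0.13. For Dnaja1 the deposited lengths were 5584 and 5583 bases in the replicate 1 tables and 3411 and 3410.2 in the replicate 2 tables, so its FPKM, 28.9 and 43.4 in wild type against 52.1 and 74.3 in the knockout, mixes lengths and the fold change is from counts. Dnajc5, a protein of secretory vesicles, fell by 0.37 ± 0.08, and Dnajc7, the most abundant, was at 59.6 and 55.0 FPKM and did not pass.

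Of 21 co-chaperone genes of HSP90 and HSP70, 8 rose and 2 fell. Fkbp5, a peptidyl-prolyl isomerase of steroid receptor complexes and a textbook glucocorticoid target, rose from 29.3 to 45.4 FPKM (0.73 ± 0.11). Stip1, the adaptor that links HSP70 to HSP90, rose from 43.5 to 65.2 FPKM (0.69 ± 0.10), and Ptges3, the p23 co-chaperone, from 42.8 to 58.9 (0.56 ± 0.09). Fkbp4, the most abundant, rose from 126 to 155 FPKM (0.40 ± 0.10). Among subunits of the TRiC chaperonin, which folds actin and tubulin, and of prefoldin, which feeds it, 10 of 14 rose and the other 4 did not pass. Cct3 rose from 56.6 to 101 FPKM (0.94 ± 0.11), Cct8 by 0.72 ± 0.11 and Cct6a by 0.67 ± 0.10. Pfdn5, the most abundant, was at 129 and 114 FPKM and did not pass.

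**Figure D4:**
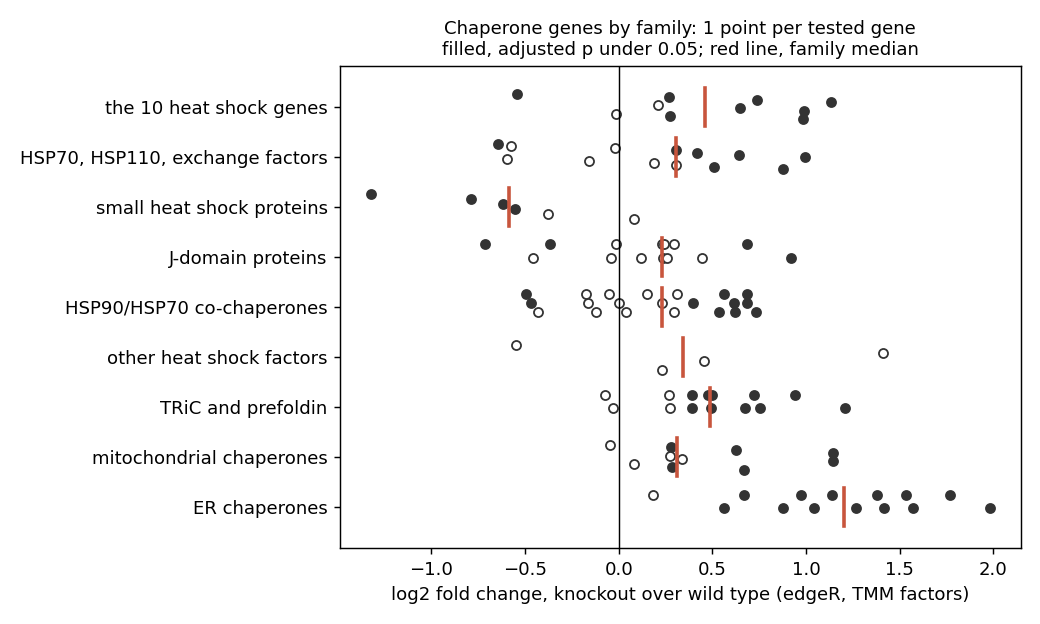
Log2 fold change, knockout over wild type, of every tested chaperone gene by family (1 point per gene, filled where edgeR's adjusted p is under 0.05, red line at the family's median). The endoplasmic reticulum family has the highest median (1.20), the 10 heat shock genes lie at 0.46, and the other small heat shock proteins lie below 0 at -0.59.

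Chaperones of other compartments were set beside the cytosolic genes. Of 10 mitochondrial genes 6 rose and the other 4 did not pass, led by the chaperonin subunits Hspe1 (85.1 to 175 FPKM, 1.14 ± 0.10) and Hspd1 (75.3 to 155 FPKM, 1.15 ± 0.12) and by Hspa9, the mitochondrial HSP70 (0.67 ± 0.10). Of 14 genes of the endoplasmic reticulum 13 rose, with a median of 1.20. Hsp90b1, the HSP90 of that compartment, rose by 1.41 ± 0.08, compared with 0.65 for Hsp90aa1 and 0.27 for Hsp90ab1. Creld2 and Manf rose by 1.98 ± 0.10 and 1.77 ± 0.10, and Calr, the most abundant, from 359 to 869 FPKM. Whether the difference between compartments exceeds the spread was not tested.

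Genes that tissue handling can induce were read as well, since heat shock genes are among those that respond to dissociation. Of 20 immediate-early genes 9 rose and 5 fell, with a median log2 fold change of 0.14. Their summed level was 1106 and 1185 FPKM in the wild-type libraries and 1059 and 1147 in the knockout. The most abundant were Klf4, which fell from 268 to 193 FPKM, and Jund, at 264 and 213 FPKM without passing, and they carry much of that sum. Among the 9 that rose, log2 fold changes were 3.25 ± 0.11 for Socs3, 1.39 ± 0.21 for Ier3 and 1.14 ± 0.11 for Atf3. Junb, a more abundant gene, rose as well, from 83.3 to 113 FPKM (0.54 ± 0.12). The genes that fell beside Klf4 were Fos (117 to 70.0 FPKM, -0.64 ± 0.10), Btg2 (-0.46), Nr4a1 (-0.62) and Klf2 (-0.61).  The part of handling in the heat shock genes was not tested.

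Markers of T and NK cells, of macrophages and dendritic cells and of neutrophils were mostly higher in the knockout. Of 12 T and NK cell genes 10 rose, with summed levels of 27.05 and 26.7 FPKM in wild type and 95.1 and 93.9 in the knockout, and Ptprc at 8.51 and 10.4 FPKM and Gzma at 1.24 and 16.7 FPKM. Macrophage and dendritic cell markers numbered 12, and 9 rose (349 and 369 FPKM summed in wild type, 495 and 545 in the knockout), with Lyz2 at 174 and 219.8 FPKM and C1qa at 48.1 and 74.1 FPKM. DESeq2 called 8 of the T and NK cell genes and 6 of the macrophage and dendritic cell genes higher. Of 8 neutrophil genes 6 had a row in any table, Mpo and Elane having none, and 5 passed the filter on low counts. Of these 5 genes 4 rose (9.34 and 11.7 FPKM summed in wild type, 194 and 156 in the knockout). They were led by S100a8 (2.135 to 93.8 FPKM), S100a9 (0.955 to 41.9) and Lcn2 (1.885 to 30.5). Cxcr2 overlapped between groups and did not pass (0.39 ± 0.31). Retnlg has a row only in the knockout tables, with 3 counts in each. Which cells made the transcripts of S100a8, S100a9 and Lcn2 was not tested. Of the other lists, B and plasma cell genes had 3 higher and 4 lower of 8 (395 and 373 FPKM summed in wild type, 480.3 and 540.5 in the knockout), with Jchain at 124 and 223 FPKM and Xbp1 at 82.7 and 138 FPKM. Endothelial and glial genes had 3 lower of 8 by edgeR and none by DESeq2 (22.9 and 21.7 against 12.1 and 16.2 FPKM), with Pecam1 at 9.33 and 6.24 FPKM and Cdh5 at 2.67 and 1.99 FPKM. Of 7 erythroid genes 4 passed the filter on low counts and all 4 were lower (163 and 132 against 19.96 and 38.6 FPKM summed over the list). Their log2 fold changes ran from -9.80 to -1.52. Hba-a1 was at 52.9 and 17.1 FPKM and Hbb-b1 at 41.7 and 9.12 FPKM, both of which have near-identical copies and are uncertain singly. Colon epithelial genes had 8 higher and 4 lower of 13 (10850 and 11175 against 11428 and 11838 FPKM). Cytosolic chaperones are made by most cell types, and the part of the cell mixture in their values was not tested.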

How the data were processed

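RNA was sequenced from 4 libraries, 2 per genotype. Per the labels' protocols, RNA was taken up in Trizol and libraries were built with an Illumina TruSeq RNA kit. Per the file headers, the authors deposited an expected count (an estimated count that need not be whole), an FPKM value and a transcript length for each gene and library. FPKM is a count scaled by transcript length and library total, and the deposited FPKM and counts are related in this way. The deposited lengths (other) served only to describe Dnajb1 and Dnaja1. The submitters' processing notes name Bowtie2, BWA and the human build hg19, with no roles. The organism is mouse, so only the coordinates of RefSeq promoters (GRCm38.p6) are given. Which program made the counts is not stated there. Of 18872 gene identifiers, 18820 (99.72%) matched the RefSeq gene table.

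Counts were rounded and tested with edgeR 4.0.16 (filterByExpr, TMM factors of 0.9647 to 1.0363, glmQLFit and glmQLFTest, no block, two-sided, R 4.3.3), which left a common dispersion of 0.0166. Alternatives used DESeq2 1.42.0 and limma 3.58.1. The standard error is the log2 fold change over the square root of F. Libraries of a group differed beyond counting noise (chi-square per degree of freedom 2.18 and 2.95) and were kept separate. The transcripts listed for some genes differ between the replicate 1 and replicate 2 tables, among these 10 for Dnajb1. Different annotation versions were inferred from this. Transcripts were matched by name and not by length, so genes such as Dnaja1, whose lengths differ, count as matched. Of the 10 genes, 7 had whole counts throughout. The script was tested on simulated data. In each chaperone list the 3 genes with the smallest p and the most abundant gene are named, and in the other lists the 2 most abundant. Retnlg, Epcam, Cdh1, Car1, Slc26a3, Socs3, Ier3 and Atf3 were named outside this rule after their values were seen. So were Junb, Fos, Btg2, Nr4a1, Klf2, Lcn2, Cxcr2 and Hspa1l. Mpo and Elane, which have no row, were named outside the rule too. A gene with no row in a library's table was given a count and an FPKM of 0 there. The 10 genes and the lists were chosen with earlier results of these data known.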

Additional observations from a re-analysis of the deposited data

How the results depend on the processing

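The direction and call of Hspa1a, Hspa1b, their sum, Hsp90aa1, Hsph1 and Dnajb1 held under every alternative run (Dnajb1 under 13, the others under 15), with log2 fold changes of 0.78 to 1.41, 0.83 to 1.08, 0.86 to 1.09, 0.38 to 0.71, 0.60 to 0.86 and 0.82 to 1.12. Dnajb1 has no value in the fits limited to genes whose transcripts match between tables. Calls of Hspa8 and Hsp90ab1 were lost under 8 and 6 of 15 alternatives (0.12 to 0.37 and 0.07 to 0.36), and that of Hspb1 under 1 (-0.73 to -0.35). The cause was not tested. The number of heat shock genes called was 6 to 9, higher 5 to 8 and lower 0 to 1 with 1 library left out, and Hsf1 lay between -0.08 and 0.05, above 0 without wild-type replicate 2. Over all genes, edgeR called 5950, or 4610 to 5764 with 1 library left out, and DESeq2 called 3917, of which 1721 were lower. With library totals alone, higher genes made up 42.4% of calls against 52.5%. Same-numbered libraries deviated together (correlation 0.625 over all genes with enough counts, 0.374 over those with the same transcripts). They share a number and, as inferred from the listed transcripts, an annotation version. With 2 pairs and no label that ties them, the pairing was not taken as part of the design. With the replicate block 7403 genes and 9 heat shock genes were called, Hspa4 among them (0.21, adjusted p = 0.00619), and 7141 genes with the block on genes of the same transcripts. For the other heat shock factors, limma on quantile normalized FPKM gave a median of -0.15, against 0.34 with edgeR. It tested 2 of the 4 genes, Hsbp1 and Hsf2, so the medians cover different genes. For these 2 genes edgeR gave 0.23 and -0.55. This alternative for the lists was chosen after seeing the data. Depth limits lowly counted genes such as Hsf4 (log2 fold change 1.41 with a standard error of 0.70).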
